A study of Mus musculus with 11 samples.

Results

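The genes described are 10 genes of motor neuron identity and acetylcholine signalling, taken from the 15803 genes with at least 1 probe set of a single symbol. They were chosen by symbol, and all 10 were measured: Chat, Slc18a3, Slc5a7, Ache, Isl1, Isl2, Mnx1, Lhx3, Lhx4 and Olig2. RNA came from NSC34, a mouse line made by fusing neuroblastoma with embryonic spinal cord cells and used as a motor neuron model, and was read on 11 Affymetrix whole-transcript arrays. The shTardbp group (4 arrays, 1 to 4) had a hairpin that targets Tardbp, which encodes the RNA-binding protein TDP-43. The shGFP group (4 arrays, 1, 2, 3 and 5) carried a hairpin against GFP, and the shLuciferase group (3 arrays, 1, 2 and 4) one against Renilla luciferase, as the labels name it. All groups shared the vector, lipofectamine transfection and puromycin selection of stable clones, so a group can reflect the clone taken as well as its hairpin. Nothing in the labels tells whether a group's arrays stand for separate clones, separate cultures or repeats of a single one, so the p-values speak for the spread among these arrays, which may be technical. The comparison asks how depletion of TDP-43 bears on transcripts in a motor-neuron-like cell.

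A cholinergic neuron makes acetylcholine with choline acetyltransferase, loads it into vesicles through the vesicular acetylcholine transporter, and takes choline back up after acetylcholinesterase has split the released transmitter. In the embryonic spinal cord, Olig2 marks the progenitors of motor neurons, and the LIM homeodomain factors Isl1 and Lhx3, bridged by Ldb1, drive the motor neuron programme together with Lhx4, Isl2 and Mnx1. Isl1 is also made by sympathetic neurons, the lineage from which neuroblastoma arises. Slc18a3 lies inside the Chat gene on the same strand, so both share a cholinergic locus.

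The sequence targeted by the Tardbp hairpin, on chromosome 4, has 25 bases and a GC content of 56%. It is shown because it is the only designed difference of the shTardbp cells for which the labels give a sequence, printed in capitals throughout as there.
Tardbp hairpin target: TCTAAGCAAAGCCCCAGACGAGCCT

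Promoter windows of 300 bases around a transcription start (RefSeq, GRCm38.p6, 5′ to 3′ on the gene's strand) are shown for the members that changed against both controls, and for Chat because it shares a locus with Slc18a3. Their 5′ ends in RefSeq lie 1059 bases apart. The windows of Chat, Slc18a3 and Ache lie at the outer 5′ end of the gene, while that of Isl2 lies inside the span RefSeq gives the gene, downstream of its outer start. Capitals mark each match to CANNTG, the E-box bound by basic helix-loop-helix factors such as Olig2, which is its own reverse complement. The homeodomain core TAATTA, likewise palindromic, was searched too and overlaps no E-box. CANNTG was found in 72.3% and TAATTA in 5.29% of 32851 promoter windows of this length.
Chat, chr14:32465860-32466159, minus strand: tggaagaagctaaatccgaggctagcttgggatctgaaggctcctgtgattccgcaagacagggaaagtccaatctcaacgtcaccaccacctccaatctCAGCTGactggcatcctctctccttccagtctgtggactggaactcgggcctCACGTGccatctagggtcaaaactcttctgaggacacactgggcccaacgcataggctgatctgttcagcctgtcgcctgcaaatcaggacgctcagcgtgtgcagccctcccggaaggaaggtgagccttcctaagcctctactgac
Slc18a3, chr14:32464801-32465100, minus strand: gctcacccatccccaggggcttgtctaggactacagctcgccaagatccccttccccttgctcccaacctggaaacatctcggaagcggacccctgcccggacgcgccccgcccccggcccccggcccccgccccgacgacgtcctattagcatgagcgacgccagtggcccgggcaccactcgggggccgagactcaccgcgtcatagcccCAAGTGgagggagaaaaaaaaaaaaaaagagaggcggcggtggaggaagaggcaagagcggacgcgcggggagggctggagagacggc
Ache, chr5:137288004-137288303, plus strand: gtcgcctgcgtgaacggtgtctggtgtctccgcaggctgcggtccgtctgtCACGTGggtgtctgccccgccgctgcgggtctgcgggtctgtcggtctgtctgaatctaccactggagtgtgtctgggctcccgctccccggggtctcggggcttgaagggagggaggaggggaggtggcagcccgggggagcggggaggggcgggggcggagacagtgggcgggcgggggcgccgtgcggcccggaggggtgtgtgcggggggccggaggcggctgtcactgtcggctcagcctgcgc
Isl2, chr9:55540899-55541198, plus strand: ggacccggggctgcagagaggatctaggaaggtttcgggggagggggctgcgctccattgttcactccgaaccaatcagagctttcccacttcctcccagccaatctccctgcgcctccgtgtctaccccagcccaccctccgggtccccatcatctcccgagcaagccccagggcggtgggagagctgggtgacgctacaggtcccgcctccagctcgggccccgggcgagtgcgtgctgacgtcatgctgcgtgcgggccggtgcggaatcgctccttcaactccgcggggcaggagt
The Chat window held 2 E-boxes, those of Slc18a3 and Ache 1 each and that of Isl2 0, and TAATTA was found in 0 of the windows of the 10 members. Such a match is a description of letters and not a site of binding.

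The median log2 level of an array was between 6.82 and 6.92, and no 2 arrays held identical values. Tardbp had log2 levels of 8.82, 8.80, 9.0 and 8.91 in shTardbp, against 9.25, 9.08, 9.36 and 9.42 in shGFP and 9.29, 9.38 and 9.20 in shLuciferase. All 4 shTardbp arrays lay below all 7 control arrays (log2 change -0.40, SE 0.0722, adjusted p = 0.000713 by limma). The labels also give each array a code, which begins with P for the 4 shTardbp arrays and shLuciferase 4 and with C for the other control arrays. The labels leave this letter unexplained. A model that also held the letter put the Tardbp change at -0.291 (adjusted p = 0.173), so that in this fit shLuciferase 4 alone separates hairpin from letter.

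The labelled cell type was checked against the members' own levels. A gene was taken as above background on an array where its level exceeded the 95th percentile of 955 genes of odorant, vomeronasal and trace amine receptors, which stood at 4.78 to 5.11. By this rule 6 of the 10 members were above background in all 7 control arrays (Slc18a3, Ache, Isl1, Isl2, Lhx4 and Olig2), as were 60.6% of all genes, so the count was at the share of all genes. Of these, Olig2 lay near the threshold, at 5.20 to 5.41 in the control arrays. The gene most correlated with it was Olfr156 (r = 0.9472), an odorant receptor gene of the class that sets the background. For Olig2, passing the rule therefore does not show that the gene is expressed. The defining enzyme Chat, the choline transporter Slc5a7 and the motor neuron factor Mnx1 were above background in 0 of the 4 shTardbp arrays and 0 of the 7 control arrays. Lhx3 was above it in 1 of 4 shTardbp and 1 of 7 control arrays, and in all 11 by a lower threshold, the 25th percentile of all probe sets (4.46 to 4.57). Of the probe sets, 5 of 19 for Chat, 2 of 9 for Slc5a7, 1 of 6 for Mnx1 and 4 of 8 for Lhx3 exceeded that lower threshold in all 7 control arrays, against 5 of 5 for Ache and 10 of 10 for Isl1.

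Against both controls, 3 of the 10 members passed the test and were higher in shTardbp (Ache, Slc18a3 and Isl2), and 0 were lower (4 and 0 at an unadjusted p under 0.05). Of all genes 30.5% passed this test, 13.5% higher and 17% lower, so the number of members called was at the background share. The median log2 change was 0.0873 for the members and 0.00717 for all genes. Against shGFP alone 3 members were higher and 1 lower, with 27.9% of all genes called (12.4% higher and 15.5% lower). Against shLuciferase alone 4 were higher and 0 lower, with 26.1% called (11.8% higher and 14.3% lower). These comparisons share the shTardbp arrays. Between the controls 1 member was higher and 1 lower in shGFP than in shLuciferase, with 11.1% of genes called (6.26% higher and 4.82% lower).

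**Figure D1:**
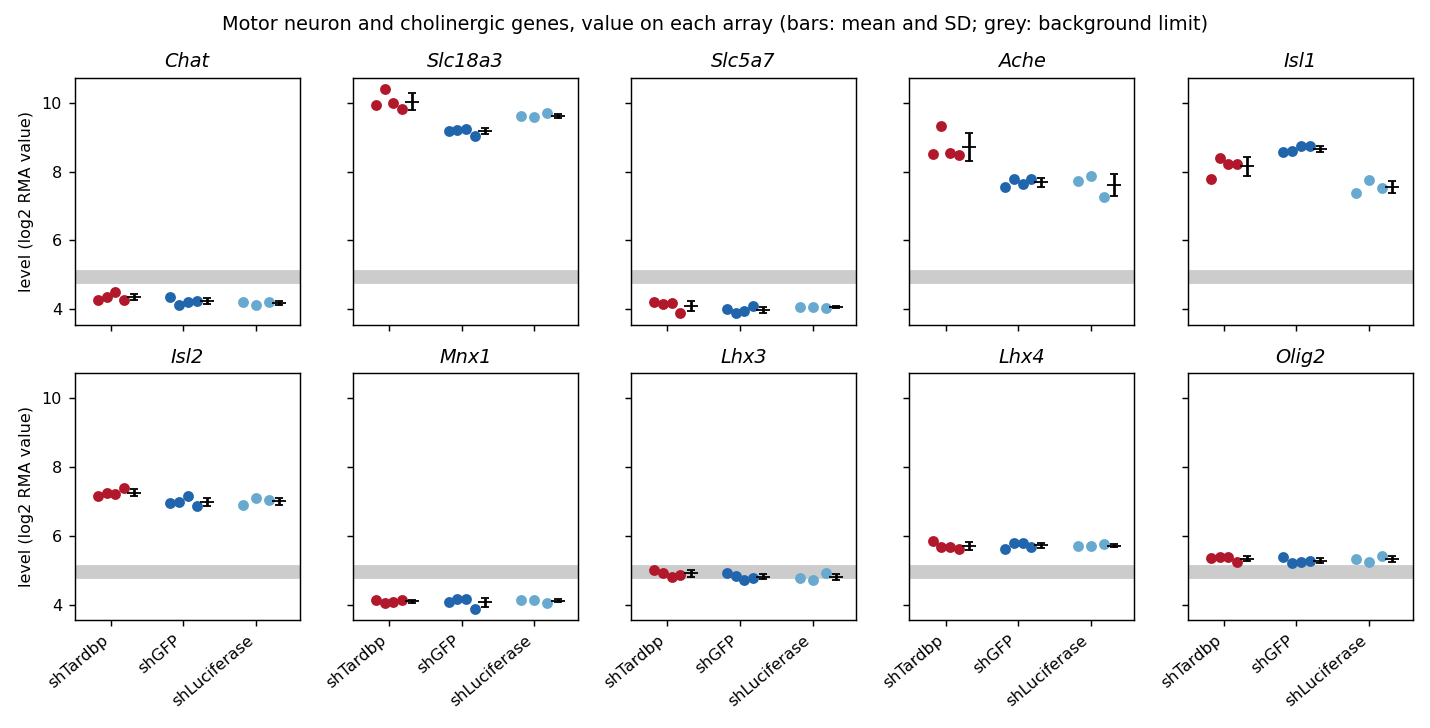
Log2 level of each of the 10 members (vertical axis) in the shTardbp, shGFP and shLuciferase arrays; points are arrays, bars the group mean with SD, and the grey band is the range of the background threshold over arrays (4.78 to 5.11). Ache and Slc18a3 had all 4 shTardbp arrays above all 7 control arrays, Isl1 separated the control groups, and Chat, Slc5a7 and Mnx1 stayed under the band.

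Ache, which encodes acetylcholinesterase and ends cholinergic transmission, showed the largest change among the members against both controls. Its log2 levels were 8.50, 9.33, 8.55 and 8.49 in shTardbp, against 7.54, 7.79, 7.63 and 7.78 in shGFP and 7.72, 7.86 and 7.25 in shLuciferase. All shTardbp arrays lay above all control arrays, with shTardbp 2 highest and shLuciferase 4 lowest, and 8.45% of all genes had their 4 shTardbp arrays above all 7 control arrays. The group means were 8.72 ± 0.409 in shTardbp (SD, n = 4), 7.69 ± 0.119 in shGFP (n = 4) and 7.61 ± 0.321 in shLuciferase (n = 3). The log2 change was 1.07 against both controls (SE 0.156, 2.10-fold, adjusted p = 0.000128), 1.03 against shGFP (adjusted p = 0.000505) and 1.11 against shLuciferase (adjusted p = 0.000603). The controls differed by 0.08 (95% interval -0.33 to 0.48, adjusted p = 0.907). Without shTardbp 2 the change against both controls was 0.865 (adjusted p = 8.6e-05), and with the code letter as a term it was 1.52 (adjusted p = 0.00305).

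All 5 Ache probe sets were higher in shTardbp, by 0.81 to 1.42 on the log2 scale, and at 3 of them all 4 shTardbp arrays lay above all 7 controls. The difference of a probe set from the other probe sets of its gene (usage) was tested separately. None of the 5 passed, with a smallest adjusted p of 0.222. Over the members, 51 probe sets of 8 genes could be tested for usage, and limma called 0, with 1 at an unadjusted p under 0.05 and 0 by diffSplice, where 1.42% of all probe sets tested were called.

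Slc18a3 encodes the vesicular acetylcholine transporter and was read by a single probe set. Its log2 levels were 9.92, 10.39, 9.98 and 9.82 in shTardbp, against 9.18, 9.20, 9.24 and 9.04 in shGFP and 9.60, 9.58 and 9.69 in shLuciferase. The 3 groups did not overlap: shTardbp was highest, shLuciferase in between and shGFP lowest. Of all genes, 20.1% had the shGFP arrays apart from the shLuciferase arrays. The means were 10.03 ± 0.248 in shTardbp (SD, n = 4), 9.17 ± 0.0868 in shGFP (n = 4) and 9.63 ± 0.0578 in shLuciferase (n = 3). The log2 change was 0.63 against both controls (SE 0.0920, 1.55-fold, adjusted p = 0.000129). Its size depended on the control, at 0.86 against shGFP (1.82-fold, adjusted p = 3.22e-05) and 0.40 against shLuciferase (1.32-fold, adjusted p = 0.0160). The difference between the controls itself passed the test, with shGFP lower than shLuciferase by a log2 difference of -0.46 (adjusted p = 0.0160). That call was lost with the replicate number as a block (adjusted p = 0.0844), with the code letter (adjusted p = 0.0564) and without shLuciferase 4 (adjusted p = 0.0564). With the code letter as a term the change against both controls was 0.55 and no longer passed (adjusted p = 0.0571), and that against shLuciferase was 0.335 (adjusted p = 0.197). The change against shLuciferase was also not called without shLuciferase 1 (adjusted p = 0.0526) or without shLuciferase 2 (adjusted p = 0.0588).

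Chat, the acetylcholine-synthesising enzyme of the same locus, did not pass. Its log2 levels were 4.28, 4.37, 4.49 and 4.28 in shTardbp, against 4.36, 4.13, 4.21 and 4.25 in shGFP and 4.22, 4.11 and 4.20 in shLuciferase. The groups overlapped, all gene values were below background, and the log2 difference from both controls was 0.15 (95% interval 0.01 to 0.29, adjusted p = 0.0997). It passed with array weights (0.184, adjusted p = 0.0228). At single probe sets the highest mean levels were 6.93 in shTardbp, 6.76 in shGFP and 6.85 in shLuciferase, at a probe set where shTardbp and control arrays overlapped, and at 15 of the 19 probe sets the shTardbp mean was higher than in the controls. Slc5a7, the high-affinity choline transporter, read 4.21, 4.14, 4.18 and 3.89 in shTardbp, against 4.01, 3.88, 3.96 and 4.10 in shGFP and 4.07, 4.08 and 4.05 in shLuciferase, also all below background (log2 difference 0.08, adjusted p = 0.492).

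**Figure D2:**
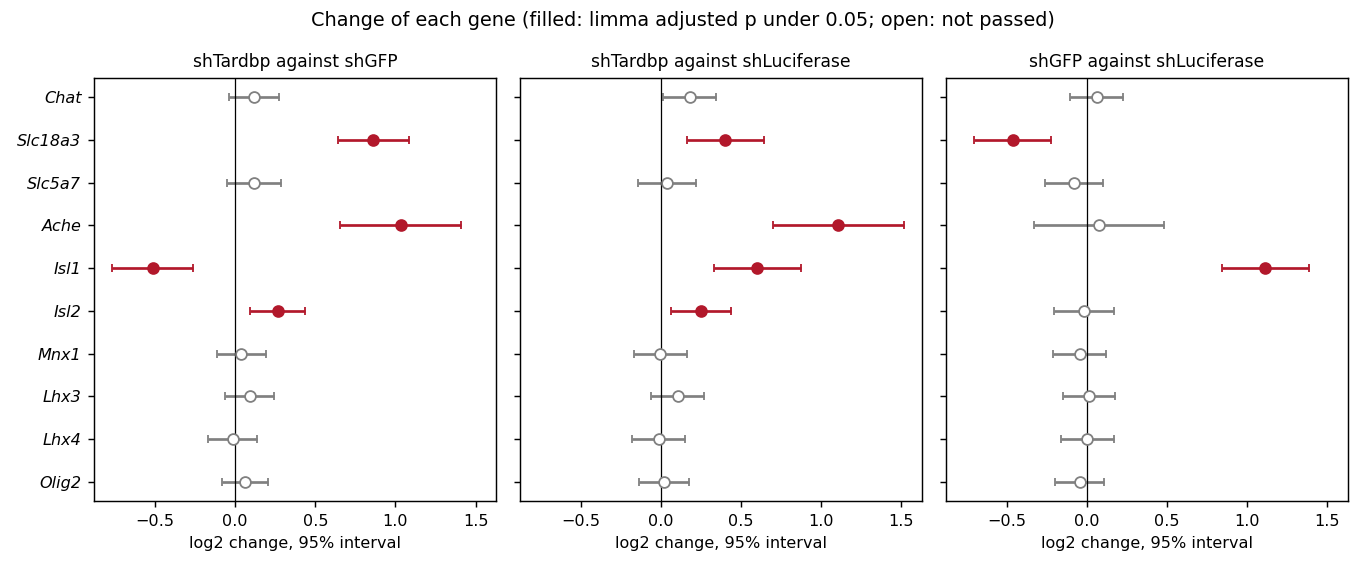
Log2 change of each member (points) with its 95% confidence interval (lines) for shTardbp against shGFP (left), shTardbp against shLuciferase (middle) and shGFP against shLuciferase (right); filled points have an adjusted p under 0.05. Ache lay at 1.03, 1.11 and 0.08 in the 3 panels, while Isl1 lay at -0.51, 0.60 and 1.11.

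Isl1, the LIM homeodomain factor shared by motor and sympathetic neurons, had opposite differences from the 2 control groups. Its log2 levels were 7.77, 8.39, 8.22 and 8.21 in shTardbp, against 8.57, 8.61, 8.74 and 8.73 in shGFP and 7.39, 7.74 and 7.52 in shLuciferase. Every shTardbp array lay below every shGFP array and above every shLuciferase array, with shTardbp 1 close to shLuciferase 2. The means were 8.15 ± 0.264 in shTardbp (SD, n = 4), 8.66 ± 0.0833 in shGFP (n = 4) and 7.55 ± 0.181 in shLuciferase (n = 3). Isl1 was lower than in shGFP by a log2 change of -0.51 (adjusted p = 0.00429) and higher than in shLuciferase by 0.60 (adjusted p = 0.00282). Against both controls the difference was 0.04 (95% interval -0.18 to 0.27, adjusted p = 0.837). The largest Isl1 difference was between the controls, where shGFP exceeded shLuciferase by 1.11 (2.17-fold, adjusted p = 6.73e-05). Only 77 genes, 0.487% of all, were called against each control alone in opposite directions. With the code letter as a term the difference from shGFP was -0.466 (adjusted p = 0.248), that from shLuciferase 0.633 (adjusted p = 0.0374), and that between the controls 1.10 (adjusted p = 0.000647).

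All 10 Isl1 probe sets showed this order. Each was lower in shTardbp than in shGFP (log2 difference -1.03 to -0.36) and higher than in shLuciferase (0.51 to 0.73), and shGFP exceeded shLuciferase at all 10 by 0.94 to 1.56. Where probe sets were summarised by their median, the difference from shGFP was -0.415 and not called (adjusted p = 0.0588).

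Isl2, a paralog of Isl1 restricted to subsets of spinal motor neurons and other postmitotic neurons, had a small change. Its log2 levels were 7.15, 7.24, 7.22 and 7.40 in shTardbp, against 6.95, 6.99, 7.15 and 6.86 in shGFP and 6.89, 7.09 and 7.03 in shLuciferase. The lowest shTardbp array and shGFP 3 met at 7.15, and all other control arrays lay below all shTardbp arrays. The log2 change was 0.26 against both controls (SE 0.0715, 1.19-fold, adjusted p = 0.0135), 0.26 against shGFP (adjusted p = 0.0240) and 0.25 against shLuciferase (adjusted p = 0.0487). Of its 9 probe sets 8 were higher than in both controls together (-0.02 to 0.49). Taking probe set medians lost the call (0.169, adjusted p = 0.458), as did leaving out shTardbp 4 (0.209, adjusted p = 0.0578) and adding the code letter (0.222, adjusted p = 0.316). Against shGFP alone it was lost under the same 3 settings, without shGFP 1 or shGFP 5 (adjusted p = 0.0542 and 0.08), and with the replicate number as a block (0.193, adjusted p = 0.123). Against shLuciferase alone it was lost in most fits, among them those without shLuciferase 1 (0.193, adjusted p = 0.206), shTardbp 2 (0.255, adjusted p = 0.0759), shTardbp 3 (0.26, adjusted p = 0.0776) or shLuciferase 4 (0.264, adjusted p = 0.0736).

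The arrays whose code begins with P hold the 4 shTardbp arrays and a single control, shLuciferase 4, which gives values but no test. Among them Ache was at 8.49 to 9.33 in shTardbp and 7.25 in shLuciferase 4, and Slc18a3 at 9.82 to 10.39 in shTardbp and 9.69 in shLuciferase 4. Isl2 was at 7.15 to 7.40 in shTardbp and 7.03 in shLuciferase 4, and Isl1 at 7.77 to 8.39 in shTardbp and 7.52 in shLuciferase 4. For all 4 genes every shTardbp array was above this control. These 4 were the members called higher against shLuciferase, a group that holds this array, so the order is no separate support. The share of all genes with this order was not computed. The arrays whose code begins with C hold no shTardbp array.

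**Figure D3:**
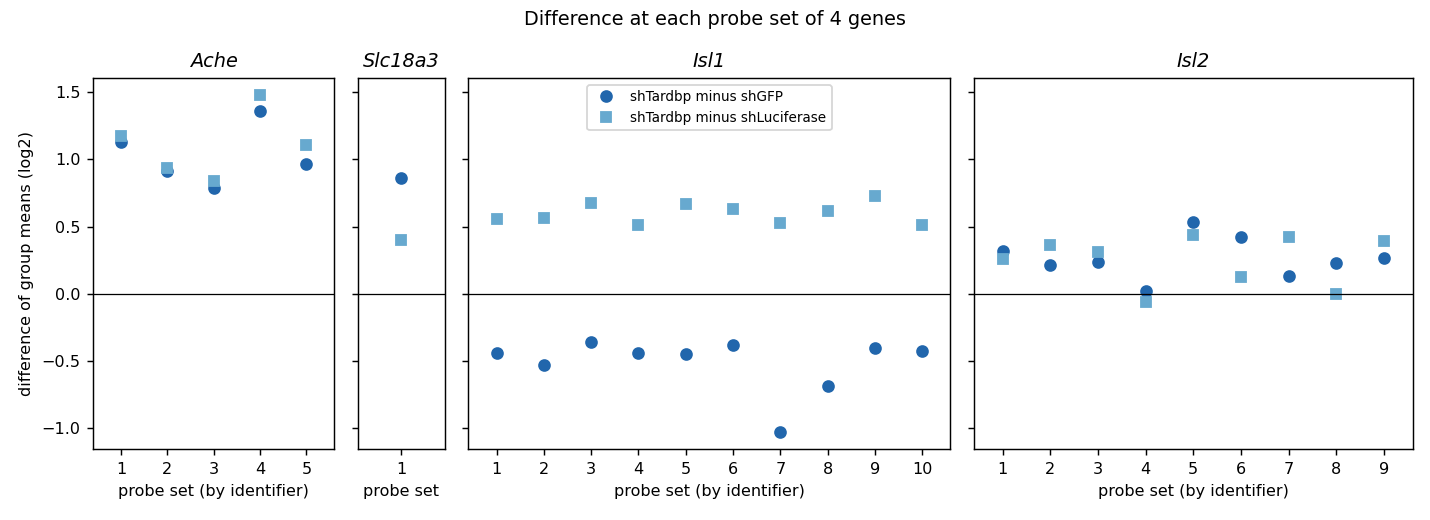
Log2 difference of shTardbp from shGFP and from shLuciferase at each probe set (points) of Ache, Slc18a3, Isl1 and Isl2, with a line at 0. All 5 Ache probe sets lay above 0 in both comparisons, and all 10 Isl1 probe sets lay below 0 against shGFP and above 0 against shLuciferase.

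The remaining identity factors did not pass in any of the comparisons. Lhx4, which acts with Lhx3 in early motor neurons, read 5.86, 5.66, 5.67 and 5.62 in shTardbp, against 5.62, 5.78, 5.80 and 5.68 in shGFP and 5.69, 5.69 and 5.77 in shLuciferase. Its groups overlapped, with a log2 difference of -0.02 from both controls (95% interval -0.15 to 0.12, adjusted p = 0.914). Olig2, the progenitor factor, read 5.36, 5.37, 5.39 and 5.24 in shTardbp, against 5.38, 5.20, 5.25 and 5.28 in shGFP and 5.32, 5.24 and 5.41 in shLuciferase. These overlapped as well, with a log2 difference of 0.04 (95% interval -0.09 to 0.17, adjusted p = 0.719). For both, the intervals leave out changes of the size seen for Ache, though levels this near to background can compress a change.

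Lhx3, the partner of Isl1 in the motor neuron complex, read 5.02, 4.93, 4.81 and 4.86 in shTardbp, against 4.91, 4.84, 4.73 and 4.78 in shGFP and 4.76, 4.73 and 4.91 in shLuciferase (log2 difference 0.10, adjusted p = 0.306). Mnx1, a homeodomain factor of postmitotic motor neurons, read 4.14, 4.05, 4.09 and 4.14 in shTardbp, against 4.07, 4.16, 4.16 and 3.88 in shGFP and 4.13, 4.14 and 4.06 in shLuciferase (log2 difference 0.02, adjusted p = 0.900). The groups overlapped for both. A probe set of Lhx3 stood well above background, at 7.80 in shTardbp, 7.61 in shGFP and 7.84 in shLuciferase, and overlapped between shTardbp and the controls as well, while all Mnx1 gene values were below background.

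Among the 6 members above background, Ache and Slc18a3 had a Pearson correlation of 0.7976 over the 11 arrays, Isl2 and Slc18a3 one of 0.6683, and Isl2 and Ache one of 0.6695. Isl1 stood at -0.4155 with Slc18a3 and 0.1017 with Ache. These values describe arrays that fall into 3 groups and carry no test. The genes most like each member were taken from 13013 genes over the same arrays. For Ache they were Syn2 (r = 0.9775), a synapsin of synaptic vesicles, then Sgsm2 (0.9675) and Ctsz (0.9587). For Slc18a3 they were Rusc1 (0.9873), Lgi3 (0.9701) and Deaf1 (0.9626). Isl1 was followed by the zinc-finger gene Tshz2 (0.9714), Adam23 (0.959) and Epm2a (0.9487), all higher in shGFP than in shLuciferase (log2 0.85, 0.82 and 0.67). Isl2 was followed by Maml3 (0.9133), Pip5kl1 (0.9106) and Pcgf3 (0.9013). The genes nearest to Lhx4 were Ahsa1 (0.8956), Cd52 (0.8912) and C1qtnf7 (0.8593), and those nearest to Olig2 were the odorant receptor gene Olfr156 (0.9472), Tgfbi (0.9399) and Slc24a4 (0.9331).

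The genes around the called members were set beside them, in the order of the RefSeq table. Of the 20 measured genes nearest to Slc18a3, Chat among them, 0 were higher and 3 lower in shTardbp, with a median log2 change of -0.0122. Around Ache 3 were higher and 1 lower (median 0.0859, highest 0.62), and around Isl2 2 were higher and 2 lower (median 0.0386).

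Lists of genes working with the members are given by the same test against both controls, for which 13.5% of all genes were higher and 17% lower, with a median of 0.00717. Up to 6 genes per list, 55 in all, are named below for the smallest adjusted p. Of these 55, 34 also passed against each control alone in the same direction. A further 10 did not pass against shGFP, 10 did not pass against shLuciferase and Stmn3 passed against neither. Of 19 acetylcholine receptor genes measured, 3 were higher and 3 lower (median 0.0319), and 7 were above background in the controls. Chrnb1, the beta subunit of the muscle-type receptor, averaged 6.40 ± 0.0920 in shTardbp, 5.54 ± 0.0920 in shGFP and 5.28 ± 0.208 in shLuciferase (log2 change 0.99, adjusted p = 7.61e-07). Chrna5, a subunit of neuronal receptors, averaged 4.13 ± 0.0705 in shTardbp, 5.25 ± 0.147 in shGFP and 5.29 ± 0.239 in shLuciferase (log2 change -1.14, adjusted p = 6.01e-07). It was above background in 0 of 4 shTardbp and 7 of 7 control arrays, so the full size of its fall was not measured. The neuronal subunits Chrna7 (-0.49) and Chrna3 (-0.48) were lower against both controls but did not pass against shGFP alone (adjusted p = 0.138 and 0.416). For both, shGFP was below shLuciferase, by -0.65 and -0.74. Chrnb2 was higher by 0.24, though not against shLuciferase alone (adjusted p = 0.482). Chrna4, which was below background, was higher by 0.20, though not against shGFP alone (adjusted p = 0.25). The model with the code letter called 1 higher and 2 lower.

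Of 22 measured genes of choline and acetyl group supply and of esterase partners, 5 were higher and 3 lower (median -0.0356). Bche, the second cholinesterase, averaged 10.49 ± 0.104 in shTardbp, 9.26 ± 0.101 in shGFP and 9.69 ± 0.263 in shLuciferase, a log2 change of 1.01 (2.02-fold, adjusted p = 2.03e-06). Thus both cholinesterase genes on the array were higher. Chka, the choline kinase that starts phosphatidylcholine synthesis, was higher by 0.77, and the choline-transporter-like gene Slc44a3, above background in 1 of 4 shTardbp and 0 of 7 control arrays, by 0.71. Pcyt1a (-0.55) and Pemt (-0.66), further enzymes of phosphatidylcholine synthesis, and Pdha1 (-0.31), a subunit of pyruvate dehydrogenase, were lower, the last not against shLuciferase alone (adjusted p = 0.106). Counts in the model with the code letter were 3 higher and 0 lower.

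Of 17 LIM homeodomain relatives and cofactors, 3 were higher and 4 lower (median -0.0776). Lhx9, a LIM homeodomain gene of dorsal interneurons, averaged 5.73 ± 0.0499 in shTardbp, 7.01 ± 0.124 in shGFP and 7.94 ± 0.0649 in shLuciferase, a log2 change of -1.74 (adjusted p = 6.88e-10). Its relative Lhx2 was also lower (-0.57). Ldb1, the cofactor that bridges Isl1 and Lhx3, was higher by 0.32 (adjusted p = 0.000647). The LIM-only proteins that bind the same cofactor moved in both directions, with Lmo1 (-0.56) and Lmo4 (-0.47) lower and Lmo3 (0.56) higher. In the model with the code letter 1 was higher and 5 were lower.

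Of 37 motor neuron and spinal cord progenitor transcription factors, 3 were higher and 9 lower (median -0.00151). Onecut2, a homeobox gene of early motor neurons, averaged 9.51 ± 0.0997 in shTardbp, 8.78 ± 0.231 in shGFP and 8.29 ± 0.0626 in shLuciferase, a log2 change of 0.98 (adjusted p = 2.52e-06). Tshz1 was higher by 0.69. The progenitor patterning genes Pax6 (-0.73) and Gli3 (-0.78) were lower, Gli3 to below background in all 4 shTardbp arrays, and so were Zeb2 (-0.27) and Ebf3 (-0.27), the last not against shGFP alone (adjusted p = 0.330). Without shLuciferase 4 the counts were 5 higher and 9 lower, and with the code letter as a term 4 and 4.

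Of 30 genes of receptor clustering and motor neuron effectors, 7 were higher and 4 lower (median 0.0244), against 2 and 1 with the code letter as a term. Agrn, whose product agrin clusters acetylcholine receptors at the neuromuscular junction, averaged 9.63 ± 0.129 in shTardbp, 8.96 ± 0.150 in shGFP and 8.92 ± 0.181 in shLuciferase (log2 change 0.69, adjusted p = 3.72e-05). Mmp9, a protease that marks fast motor neurons, was higher by 0.89, the guidance ligand Slit1 by 0.31 and Tns1 by 0.42. The guidance receptor Epha4 (-0.36) and the neurotrophic receptor subunit Cntfr (-0.27) were lower, though neither passed against shGFP alone (adjusted p = 0.0865 and 0.0710).

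The silencing complex that acts on RE1 elements of neuronal genes, with 13 genes measured, had 4 higher and 3 lower (median 0.0427). Rest itself, the factor that binds RE1, was higher by 0.29 (adjusted p = 0.0188). It did not pass against shLuciferase alone (0.23, adjusted p = 0.138), with probe set medians (0.153, adjusted p = 0.531) or without shTardbp 4 (0.248, adjusted p = 0.0703). Sin3b was higher by 0.35 and the phosphatase gene Ctdspl by 0.26, though Ctdspl did not pass against shLuciferase alone (adjusted p = 0.104). The histone methyltransferase gene Ehmt1 (-0.52), Cdyl (-0.33) and Ctdsp1 (-0.30) were lower. Adding the code letter left 4 higher and 1 lower.

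Genes of other neuron types were counted in the same way. Of 18 noradrenergic and sympathetic genes, 5 were higher and 5 lower (median 0.0252), against 2 and 2 with the code letter as a term. The granin gene Chga was higher (0.65), and Hand2 (-0.39) and Gata3 (-0.34), factors of the sympathetic lineage, were lower, each also against either control alone. Slc18a2 was higher (0.42), also against either control alone. Th (0.26) and Alk (0.26) were higher and Ddc (-0.44) lower, but not against shLuciferase alone (adjusted p = 0.162, 0.194 and 0.773). Phox2a (0.12) and Gata2 (0.14) did not pass. The calls of Chgb, Dbh and Insm1 rested on the control as well. Chgb, a second granin gene, was at 0.51 against both controls, at -0.11 against shGFP (adjusted p = 0.414) and at 1.13 against shLuciferase (adjusted p = 1.67e-06). Dbh, the noradrenaline-synthesising enzyme, was at -0.46 against both, at -1.11 against shGFP (adjusted p = 1.73e-06) and at 0.19 against shLuciferase (adjusted p = 0.225), and was above background in 0 of 4 shTardbp arrays. Insm1 was at -0.48 against both, at -0.80 against shGFP and at -0.15 against shLuciferase (adjusted p = 0.282). All 3 were higher in shGFP than in shLuciferase, as Isl1 was, by 1.24, 1.29 and 0.65. Of 19 genes of other spinal interneuron classes, 0 were higher and 4 lower (median -0.0543), namely Prrxl1, the older name of Drgx (-0.44), Pou4f1 (-0.33), Tlx3 (-0.32) and Tal1 (-0.17). Of these Prrxl1 and Tlx3 did not pass against shGFP alone (adjusted p = 0.348 and 0.131), nor Tal1 against shLuciferase alone (adjusted p = 0.155).

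Of 11 genes that set a glutamate, GABA, glycine or serotonin transmitter type, 3 were higher and 2 lower (median 0.0444), against 0 and 2 with the code letter as a term. The vesicular GABA and glycine transporter Slc32a1 was higher by 0.77, also against either control alone. Tph1 was higher by 0.35 but not against shGFP alone (0.10, adjusted p = 0.571). Gad1 was higher by 0.30 but not against shLuciferase alone (adjusted p = 0.0627), and was above background in 3 of 4 shTardbp and 0 of 7 control arrays. The glycine transporters Slc6a9 (-0.23) and Slc6a5 (-0.23) were lower but not against shLuciferase alone (-0.11, adjusted p = 0.252, and -0.07, adjusted p = 0.658). Of 15 pan-neuronal genes, 4 were higher and 0 lower (median 0.126), against 2 higher with the code letter as a term. These were Eno2 (0.96), Ncam1 (0.33), L1cam (0.46) and Stmn3 (0.23), and 13 of the 15 were above background in the controls. The mean log2 level of this list ran from 9.76 to 9.93 in shTardbp arrays and from 9.61 to 9.69 in control arrays.

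**Figure D4:**
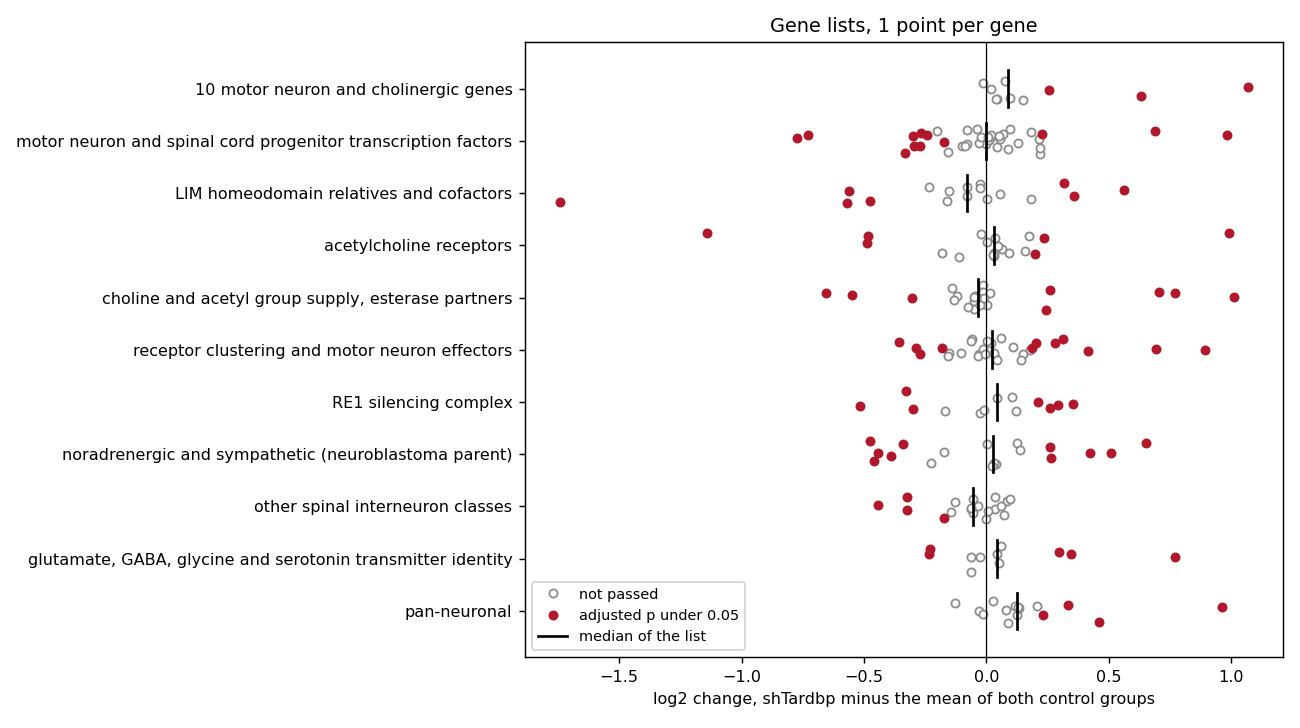
Log2 change of shTardbp against both controls for each measured gene (points) of the members and of 10 lists, with a bar at each list's median; genes with an adjusted p under 0.05 are filled. The medians lay between -0.0776 and 0.126, with single genes such as Lhx9 (-1.74) and Ache (1.07) far from them.

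Markers of other cell types were measured in the same arrays. All RNA came from NSC34 cultures, so these markers describe transcripts of that line and not other cells of a tissue. In a bulk sample, fewer cells with a transcript and less of it per cell cannot be told apart. Of 8 muscle and 8 microglial or leukocyte markers 0 passed in either direction, and 2 and 1 of them were above background in all control arrays. Of 11 oligodendrocyte and Schwann cell markers 1 was higher (Mbp, 0.24) and 1 lower (Pdgfra, -0.92). Of 8 astrocyte markers 1 was lower (Fabp7, -0.43), a gene above background on 0 of the 11 arrays. Of 9 fibroblast markers 2 were higher (Pdgfrb, 0.41, and Postn, 0.41) and 1 lower (Dcn, -1.61). Pdgfrb was at 0.04 against shGFP (adjusted p = 0.822) and 0.79 against shLuciferase, and Postn passed against neither control alone (adjusted p = 0.0639 and 0.0946). Dcn was lower against either control alone, and of 6 endothelial markers 2 were higher (Pecam1, 0.41, and Vwf, 0.70). The mean log2 level of the fibroblast list was 5.58 to 5.75 in shTardbp and 5.57 to 5.95 in control arrays, and that of the oligodendrocyte and Schwann list 5.62 to 5.80 in shTardbp and 5.72 to 5.85 in control arrays. For the endothelial list it was 4.99 to 5.10 in shTardbp and 4.77 to 4.98 in control arrays, so that every shTardbp array lay above every control array. The mean of the pan-neuronal list had the same order, as did 8.45% of all single genes. When unlogged levels were summed, the endothelial list overlapped, at 258.1 to 280.6 in shTardbp and 195.6 to 268.8 in control arrays. Only 2 of its 6 genes were above background in all control arrays. Cdh5, Tek and Cldn5 were above it on 0 of the 11 arrays, and Kdr did not pass (0.04, adjusted p = 0.813). Whether the changes of these markers relate to those of Ache, Slc18a3 and Isl2 was not tested.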

How the data were processed

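The authors deposited log2 expression values of 194293 probe sets for 11 arrays. Per the submitters' processing notes these come from Partek and RMA, whose versions are not given there. The background settings and the genome build were not given in the sources used here either. The platform annotation gave 179496 probe sets 1 symbol, 1328 several and 13469 none, and only the first kind entered. Probe sets of a gene were averaged (median 9 per gene). Of the 15803 genes, 13727 matched a current symbol of the RefSeq GRCm38.p6 table, which gave names, neighbours and promoter windows.

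All genes were fitted in a single model of 3 groups with limma 3.58.1 in R 4.3.3, with no filter on low values. Benjamini-Hochberg adjustment ran over all 15803 genes, and calls needed an adjusted p under 0.05. Intervals are 95% intervals of this model. Usage was tested with limma on each probe set minus the mean of the others of its gene, for probe sets above the 25th percentile in genes with at least 3 such probe sets (132077 probe sets). Both tests were first run on simulated data. The number of arrays limits the precision. Same-numbered arrays correlated in their deviations from the group means at 0.116, 0.201 and 0.201 for shTardbp with shGFP, at -0.0434 to 0.121 for shTardbp with shLuciferase, and at -0.0561 and 0.263 for shGFP with shLuciferase. Pairs of arrays with different numbers ran from -0.292 to 0.287. All same-numbered pairs were over 0.1 only for shTardbp with shGFP, where 5 of 6 arrays correlated best with their same-numbered partner. The main model has no block and so ignores any pairing by number. A fit with the replicate number as a block is given as an alternative. The replicate block ended 3 calls of members. Its values are given for Slc18a3 between the controls and for Isl2 against shGFP.

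The members and lists were chosen with earlier results of these data known. From each list the text names up to 6 genes with the smallest adjusted p among those past the threshold. It also names further noradrenergic and sympathetic genes and all markers of other cells that passed. For each member above background it names the 3 genes of highest correlation. Alternatives were the probe set median, filters, renormalization, centring, array weights, the replicate and code letter blocks and each array left out.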

Additional observations from a re-analysis of the deposited data

Results flagged for a closer look

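Ache in shTardbp 2 had a log2 level of 9.33 and stood apart from the other 3 shTardbp arrays, its gap to the nearest of them taking up 0.934 of the group's range, above Dixon's 95% critical value for 4 samples. Chance takes a single group past that critical value about 1 time in 20, and at least 1 of many groups more often. The change of Slc18a3 was smaller against shLuciferase than against shGFP, a difference equal to that of shGFP from shLuciferase (log2 -0.46, adjusted p = 0.0160 by limma). The change of Isl1 likewise differed with the control, by 1.11 (adjusted p = 6.73e-05), and had opposite signs.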

How the results depend on the processing

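Over 23 results on the members and Tardbp, 431 alternative values were computed. Of these 381 kept direction and side of the threshold, 31 kept direction but were no longer called, 1 became called and 18 turned sign. Of 1028 values for the 55 list genes named for the smallest adjusted p, 970 kept both, 58 lost the call and 0 turned. With the code letter, calls were lost among these 55 genes for Chgb, Chrna4, Chrna7, Chrnb2, Ctdsp1, Ebf3, Ehmt1, Epha4, Gad1, Gata3, Hand2, Insm1, Lmo3, Ncam1, Pcyt1a, Pdha1, Pemt, Pou4f1, Slc32a1, Slit1, Stmn3, Tlx3, Tns1, Tph1 and Zeb2. The cause was not tested. With the code letter as a term 1 member was called higher against both controls instead of 3, and 2509 genes were called instead of 4825. Against shGFP it called 1933 genes instead of 4416. Between the controls 1752 genes were called, against 962 with probe set medians, 2916 with array weights and 1000 with the replicate block. Probe sets of changed usage numbered 1875, against 3195 with diffSplice, 748 with the replicate block, 331 with the code letter and 986 to 1769 with 1 array left out. The replicate block called 4699 genes against both controls, and 3937 against shGFP, where it ended the Isl2 call. Each array was compared with every other group that held its number, which gave 16 comparisons in which arrays recur. In 11 of the 16 the array correlated best with its same-numbered partner, and in 5 of 6 between shTardbp and shGFP.

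The sign turned for uncalled values near 0. Against both controls these were Slc5a7 with probe set medians (-0.00297), Mnx1 with the replicate block (-0.0139), Lhx3 and Olig2 with the code letter (-0.0416 and -0.067), and Lhx4 with brighter probe sets (0.0207) or centring (0.000863). Leaving out 1 array gave -0.038 to 0.169 for Isl1, -0.0137 to 0.0350 for Mnx1 and -0.0693 to 0.0123 for Lhx4. For shGFP against shLuciferase, Ache was at -0.0434 with array weights, -0.0338 with the replicate block, -0.105 with the code letter and -0.105 to 0.200 with 1 array left out, and Isl2 at 0.0454, 0.0456 and, with 1 array left out, -0.0716 to 0.0296. The Slc18a3 difference between the controls was not called with the replicate block (adjusted p = 0.0844), the code letter (adjusted p = 0.0564) or without shLuciferase 4 (adjusted p = 0.0564).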
